A study of Homo sapiens with 6 samples.

Results

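The experiment described here set CMC-treated RNA against mock-treated RNA when both were copied by SuperScript III, an engineered retroviral reverse transcriptase, with magnesium as the divalent cation. It comprised 2 of the 6 libraries of the series, chosen by their titles, 1 treated and 1 mock-treated. Both came from HEK293T/17, a human embryonic kidney cell line. Total RNA without its short species was fragmented, treated or mock-treated, end-repaired, ligated to an adapter and reverse transcribed, and the cDNA was circularised and sequenced with the other 4 libraries. Those 4 were the same pair of treatments copied by SuperScript III with manganese and by the reverse transcriptase of HIV with magnesium. With 1 library per group there is no replicate, so every test below compares these 2 libraries and not the treatments.

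Pseudouridine (Ψ) is an isomer of uridine in which the base is joined to the sugar through carbon instead of nitrogen. In ribosomal RNA it is made at fixed sites by an enzyme that box H/ACA guide RNAs direct. It pairs with adenosine as uridine does and so is silent in ordinary sequencing. CMC, a carbodiimide, puts a bulky group on the Watson-Crick face of uridine and guanosine and on both ring nitrogens of Ψ. Mild alkali removes most of the group from uridine and guanosine, while the group on the N3 of Ψ stays longer. No alkaline step is described in the labels. A reverse transcriptase meeting the group can stop, or read through and insert a wrong base.

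For each position of 18S and 28S rRNA the tables gave the reads that crossed it, the bases read there, and the reads that ended there. The mismatch share is the percentage of crossing reads with a base other than the reference base. The stop share is the percentage of reads ending at a position among those that ended or crossed. The labels do not say whether a stop is booked at the last base copied or at the base not copied. At N1-methyladenosine 1322 of 28S, which blocks pairing, the mock stop share was 87.2% in its own row, 23.6% in the row 3′ and 10.02% in the row 5′. At the paired N6,N6-dimethyladenosines 1850 and 1851 of 18S, of which the enzyme meets 1851 first, the mock stop share was 94.98% and 0.332%. Rows are read here as the base not copied, on the values at 28S 1322 alone. Why 1851 differed was not tested. The values below belong to the rows as deposited, and a shift of the rows by 1 would move the sites named by 1. Of 6939 positions, 6912 had at least 100 crossing reads in both libraries and were tested. The 27 left out were 2 positions of 18S and 25 of 28S, among them the runs 613 to 621 and 3441 to 3454. Just inside the limit, 28S position 3440 had 269 crossing reads with CMC and 109 without, and just outside it position 3454 had 364 and 97. The CMC library held 23849776 read ends and the mock library 23209210. Median crossing depth was 112352 with CMC and 185814 without in 18S, and 66070 and 119172 in 28S. The ratio of crossing reads, CMC over mock, had a median of 0.598 in 18S and 0.998 in 28S and ran from 0.0460 to 6.27 over single positions. Intervals of single shares and of differences between library pairs given below cover counting error only. Reads amplified without molecular identifiers are not independent molecules.

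A position was called where a two-sided Fisher's exact test of reads gave a Benjamini-Hochberg adjusted p under 0.05 over all positions and the shares differed by at least 5 percentage points. At this depth the test alone passed at 2979 positions with a higher and 2856 with a lower stop share, so the size limit decided most calls. A list of rRNA modifications drawn from general knowledge supplied 99 established Ψ sites (38 in 18S, 61 in 28S), 11 doubtful ones and 12 other modified bases.

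The sequences below are those on which the results turn, 21 nt each, written 5′ to 3′ as the deposited tables give the reference, with positions counted from the first base of each rRNA. Capitals in the first 4 mark Ψ with the base 5′ and the 2 bases 3′ of it. The first 3 are the Ψ sites with a called rise in mismatches, and the fourth is the other listed Ψ with a G on both sides.
18S Ψ406, positions 396 to 416: ugaccacggGUGAcggggaau
28S Ψ4471, positions 4461 to 4481: ccuaucauuGUGAagcagaau
28S Ψ4521, positions 4511 to 4531: auagggaacGUGAgcuggguu
28S Ψ4372, positions 4362 to 4382: aagcaggagGUGUcagaaaag
In the next 4 the capital is the Ψ with the largest rises in stops.
28S Ψ4361, positions 4351 to 4371: uuuuggguuuUaagcaggagg
18S Ψ1367, positions 1357 to 1377: auuugucuggUuaauuccgau
18S Ψ1445, positions 1435 to 1455: cccaacuucuUagagggacaa
18S Ψ822, positions 812 to 832: aauuagagugUucaaagcagg
In the last 4 the capitals are a Ψ and the base 5′ of it, where the stop share rose by more than at the Ψ itself.
18S Ψ119, positions 109 to 129: uuaugguucCUuuggucgcuc
18S Ψ1081, positions 1071 to 1091: guuccgaccAUaaacgaugcc
28S Ψ1860, positions 1850 to 1870: agugggccaCUuuugguaagc
28S Ψ4299, positions 4289 to 4309: uugaucuugAUuuucaguacg

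With magnesium, CMC was read chiefly as stops at uridines. The stop share rose at 637 positions (9.22% of those tested) and fell at 127 (1.84%), whereas the mismatch share rose at 11 (0.159%) and fell at 6 (0.0868%). Of the 637 rises, 505 were at uridine, 79 at G, 27 at A and 26 at C. That is 43.8% of all 1152 tested uridines, against 3.34% of G, 2.23% of A and 1.19% of C. Only 1 of the 127 falls in stops was at a uridine, 28S position 3545, where the share was 39.4% with CMC and 45.2% without. Crossing reads were fewer with CMC at the positions whose stops rose (median ratio 0.563) than over all positions (0.887). A read that stops at a position is not counted as crossing it, so the 2 measures are linked by definition. The part of depth in the result was not tested.

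The 4 bases differed in the size of the change as well as in the number of calls. The median change in stop share was 3.99 points at uridine (95% order-statistic interval 3.58 to 4.37), 0.09 at G (0.06 to 0.13), -0.26 at A (-0.32 to -0.19) and -0.23 at C (-0.27 to -0.21). These are intervals of the median over positions, which are not replicates, and not the spread. The quartiles at uridine were 1.56 and 9.67 points. At uridine 93.1% of positions had a higher stop share with CMC, at G 56.6%, at A 33.6% and at C 30.5%. G, the other base that CMC attacks, thus lay between uridine and the remaining bases, and close to the latter. Without any listed modification the median at uridine was 3.46 points, so the shift was not confined to the listed Ψ sites. Mismatch shares moved far less. Their median change was 0.137 points at uridine (0.126 to 0.151), 0.057 at C (0.054 to 0.061), 0.051 at G (0.047 to 0.053) and 0.013 at A (0.010 to 0.016), and it was above 0 at 96.6% of uridines.

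**Figure D1:**
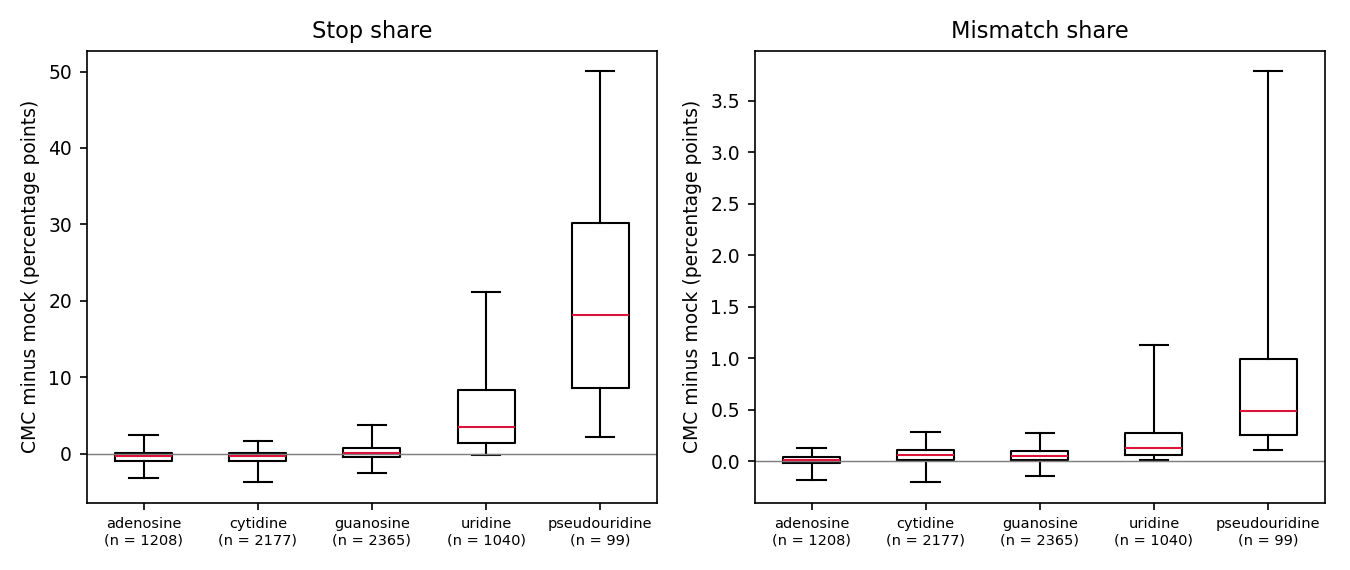
Change in stop share (left) and mismatch share (right), CMC minus mock in percentage points, over positions of 18S and 28S rRNA by nucleoside, without listed modifications except for the last box, which holds the 99 listed pseudouridines. Red lines are medians, boxes quartiles and whiskers the 5th and 95th percentiles. The median stop change is 3.46 points at uridine and 18.2 at pseudouridine, and the boxes of the other 3 nucleosides lie close to 0.

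The 99 listed Ψ sites had stop shares of 1.08% to 76.2% with CMC (median 18.7%) and 0.214% to 10.3% without (median 1.88%). The median change was 18.2 points (order-statistic interval 14.6 to 22.0), and the share was higher with CMC at 98 of 99. It rose past the call limit at 90 of 99, against 9.22% of all positions and 39.1% of unlisted uridines. The change reached 25 points at 33 sites and 50 points at 5. The quartiles of the change, 8.54 and 30.2 points, show how widely Ψ sites differed from one another under one treatment. Sites in 18S had a median change of 22.5 points and those in 28S of 16.7.

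The 5 largest rises come first. At 28S Ψ4361 the stop share was 70.4% with CMC and 2.74% without, with 31286 and 181292 crossing reads. At 18S Ψ1367 it was 76.2% and 10.3%. At 18S Ψ1445 it was 65.4% and 5.11%, at Ψ822 61.7% and 9.50%, and at Ψ572 55.6% and 5.20%. The next were 18S Ψ815 (51.7% and 1.69%) and 28S Ψ3844 (52.3% and 3.14%), Ψ3851 (50.3% and 1.14%), Ψ1536 (49.98% and 5.43%) and Ψ2632 (47.1% and 2.58%). In each of these 10 the 2 libraries stood far apart, yet the mismatch share changed by only 0.230 to 1.51 points and was called in none.

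The base 3′ of the uridine, which the enzyme copies just before it, went with the size of the stop. At the 26 listed Ψ followed by A the median rise was 36.3 points, at the 25 followed by U 21.9, at the 23 followed by C 13.7 and at the 25 followed by G 6.71. All 26 sites before A were called, against 18 of 25 before G. The order was the same over all tested uridines, listed or not, except that G stood above C. There the medians were 12.6 points before A (187 uridines), 6.53 before U, 3.41 before G and 2.19 before C, and the share called was 81.8% before A and 24.1% before C. The base 5′ of the uridine made less difference, with medians of 3.43 to 4.47 points over all uridines. At the listed Ψ the medians by 5′ base were 13.6 points after A, 17.0 after C, 18.9 after U and 20.9 after G. These are descriptions of positions within the same 2 libraries and carry no test.

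At 9 listed Ψ the stop share had no called rise, and 8 of them had no call of either kind. At 18S Ψ93 the stop share was 1.08% with CMC and 1.23% without, the single listed site with a lower value. At 18S Ψ1232 the shares were 2.91% and 2.29%. In 28S the changes were 2.51 points at Ψ4372, 1.96 at Ψ4403, 2.26 at Ψ4420, 1.73 at Ψ4493, 3.31 at Ψ4636 and 2.31 at Ψ4689. These 8 sites had 15687 to 135534 crossing reads in the CMC library. Ψ4689 still carried a mismatch share of 3.07% with CMC against 0.0521% without, below the call limit. Ψ93 was not silent under another enzyme. Its mismatch share changed by 15.6 points in the libraries made with HIV reverse transcriptase and by 0.190 here, a difference of -15.4 points (95% normal interval from read counts -15.7 to -15.1).

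Mismatches at Ψ were higher with CMC at 97 of 99 sites, but mostly by little. Their median mismatch share was 0.551% in the CMC library and 0.0560% in the mock library. The median of the changes was 0.490 points (0.381 to 0.593). It reached 1 point at 25 sites, and 50 sites stayed under 0.5. Only 3 sites (3.03%, against 0.159% of all positions) were called. At 18S Ψ406 the mismatch share was 14.6% with CMC (Wilson 95% interval 14.4 to 14.8) and 0.132% without, at 118659 and 249127 crossing reads. At 28S Ψ4471 it was 16.7% (16.4 to 17.0) and 0.108%, at 50408 and 176915 reads. At 28S Ψ4521 it was 16.8% (16.4 to 17.2) and 0.0566%, at 33432 and 180326 reads. The next highest change was 3.98 points, at 18S Ψ1692, so these 3 sites stood clear of the other 96.

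The 3 sites did not stop the enzyme alike. The stop share at Ψ4471 was 20.5% with CMC and 1.18% without, at Ψ406 8.17% and 0.558%, and at Ψ4521 1.68% and 0.301%. Ψ4521 was thus called for mismatches only. One nucleotide 5′ of it, at G4520, the stop share was 7.43% with CMC and 1.70% without. The 2 remaining pairs of libraries gave mismatch changes at the same sites of 14.5 points (manganese) and 18.9 (HIV enzyme) at Ψ406, 38.8 and 29.8 at Ψ4471, and 11.0 and 22.2 at Ψ4521. Of the 99 listed sites, Ψ4521 was the only 1 whose mismatch change was larger with magnesium than with manganese, by 5.77 points (5.25 to 6.29).

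As the sequences above show, all 3 called sites read GUGA with the Ψ as its U. This was noticed after the values were seen, and the 3 are the only listed Ψ in that context. The match counts only the strand of the rRNA itself. Of all 1152 tested uridines 30 (2.60%) lie in GUGA. The 27 that are unlisted had changes of -0.113 to 0.857 points with a median of 0.176, and none was called. The fourth listed Ψ between 2 G residues, Ψ4372 in GUGU, had 0.179% with CMC and 0.106% without. The other 7 listed Ψ followed by GA (Ψ1244, Ψ1744, Ψ3734, Ψ3764, Ψ3822, Ψ4296 and Ψ4689) had changes of 0.224 to 3.02 points. A match of letters is a description, and whether the context bears on the rate was not tested.

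**Figure D2:**
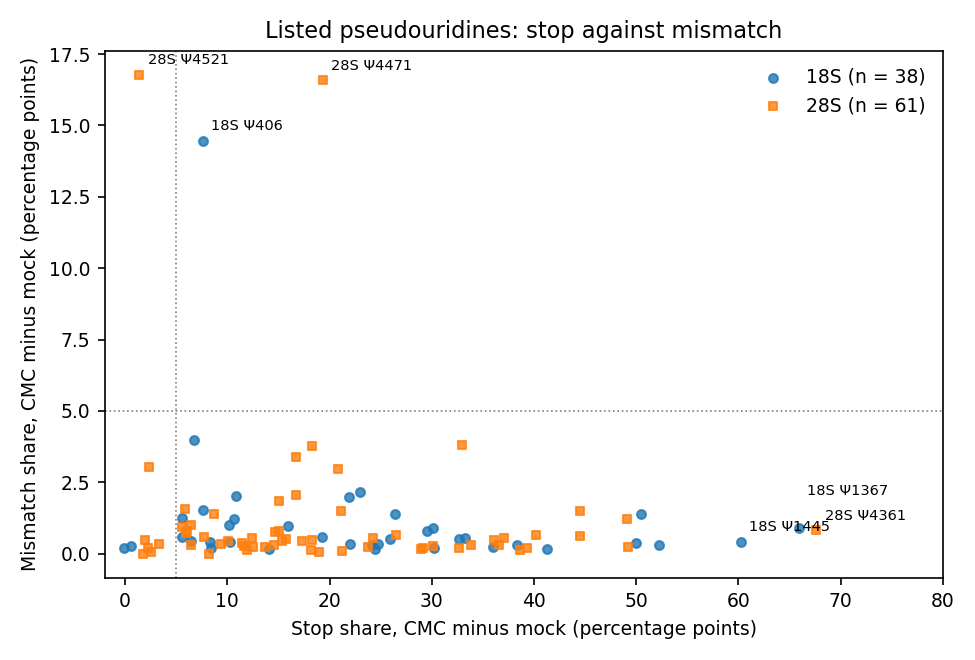
Change in mismatch share against change in stop share, CMC minus mock in percentage points, at 38 listed pseudouridines of 18S (circles) and 61 of 28S (squares). Dotted lines mark the call limit of 5 points. The 3 labelled sites at the top exceed 14 points of mismatch with stop changes of 1.38 to 19.4, while the 5 sites with over 50 points of stop stay under 1.5 points of mismatch.

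The base read in place of Ψ was mostly C, and the share of C was larger with CMC in pooled reads and as a mean over sites, but C led at fewer sites. With reads pooled over the 99 sites, mismatched reads with CMC were 77.1% C, 16.3% A and 6.63% G (66742 reads). Without CMC they were 51.1% C, 30.5% A and 18.4% G (12054 reads). The 10 sites with most mismatched reads gave 67.7% of the pooled CMC reads, and the mean over sites was lower, 61.8% C with CMC and 53.4% without. C led at 77 sites with CMC and 82 without, A at 17 and 16, and G at 5 and 1. At unlisted uridines the pooled share of C was 50.8% with CMC and 50.4% without and the mean over positions 51.8% and 54.3%, although mismatched reads there numbered 273493 with CMC and 139049 without. Among the remaining bases the pooled spectrum differed most at A. There G made up 35.02% of mismatches with CMC and 26.7% without, C 24.5% and 28.1%, and U 40.4% and 45.2%. C led at 309 unlisted A with CMC and 535 without, and G at 406 and 243. Pooled mismatches at C were read as U in 64.6% with CMC and 62.3% without, and those at G as A in 67.7% and 65.2%. At G 10 positions gave 51.5% of the pooled CMC reads. The mean over positions read as A there was only 38.9% with CMC and 38.6% without.

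Single sites departed from the pooled spectrum. Of the 25 Ψ with a change of at least 1 point, C led at 21, A at 2 and G at 2, and C made up over 80% at 16. At Ψ4471 C was 97.5% of mismatched reads with CMC and at Ψ406 91.3%, but at Ψ4521 it was 71.3% with 28.02% A. 18S Ψ1081 was read as A in 90.8% of its mismatches with CMC and in 83.5% without, and 18S Ψ863 in 66.2% and 66.9%. Both lie between A residues. At these 2 sites the share of reads with a mismatch grew, from 0.276% to 2.45% and from 0.173% to 2.20%, while its make-up stayed close to that of untreated RNA. At 28S Ψ4353 the leading base changed from C (45.0% without CMC) to G (70.7% with it). At 28S Ψ3822 G made up 54.8% with CMC, at a mismatch share of 1.10% against 0.0985%.

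**Figure D3:**
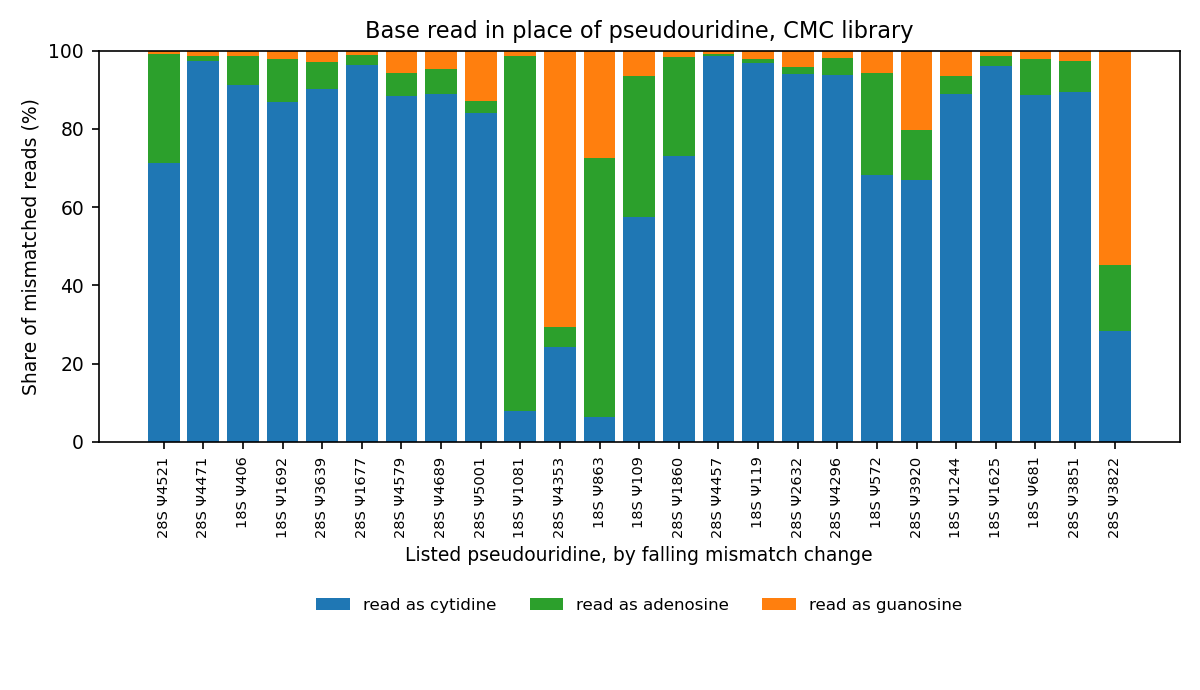
Share of mismatched reads, in percent, with each wrong base in the CMC library at the 25 listed pseudouridines whose mismatch share was at least 1 point higher than in the mock library, ordered by that change. Cytidine leads at 21 sites, adenosine at 18S Ψ1081 and Ψ863, and guanosine at 28S Ψ4353 and Ψ3822.

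Stops were not limited to the modified base. Around the 99 listed Ψ the median change at the position 5′ of the site, which under the reading of the rows above is met after the Ψ has been copied, was 3.81 points, and 45 of 99 such positions rose. At the position 3′ it was 2.14 points with 31 rises. Over all tested positions the median change was 0.0051 points and 9.22% rose. Listed sites lie near one another and near called uridines. Where the 5′ neighbour was not a uridine, 27 of 73 rose, against 132 of all 5760 tested A, C and G. Among the 90 called Ψ the median at the 5′ neighbour was 4.44 points. Among the 11 of them with no other call within 5 nt it was 2.36 points at the 5′ neighbour, 23.8 at the Ψ and 0.45 at the 3′ neighbour. The 103 unlisted called uridines with no other call within 5 nt had 8.94 points at the site and 0.63 at the 5′ neighbour. Neighbours that are called are absent from these isolated sites by their definition.

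At 16 of the 99 listed sites the change at the 5′ neighbour exceeded that at the Ψ, and at 15 of them the neighbour was called. At 18S Ψ119 the stop share was 7.88% with CMC and 0.297% without, but at C118 it was 37.8% and 2.23%. At 18S Ψ1692 it was 8.01% and 1.29%, and at U1691 30.4% and 1.93%. At 28S Ψ4299 it was 38.0% and 1.93%, and at A4298 48.2% and 2.01%, the largest rise at any unlisted A. At 28S Ψ1860 the changes were 15.1 points at the Ψ and 32.2 at C1859, at 28S Ψ3920 8.71 and 23.4 at C3919, and at 28S Ψ3639 33.0 and 40.6 at G3638. At 18S Ψ1081, one of the sites read as A, they were 23.0 and 32.6 at A1080. In 10 of these 16 the 5′ neighbour was called and was not a uridine. 18S Ψ1046 is different, since its 5′ neighbour, position 1045, is itself a doubtful Ψ (40.6% against 3.21%).

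The 3′ base also went with the stops on either flank. Before A the median change was 36.3 points at the Ψ and 1.4997 at its 5′ neighbour, and before U it was 21.9 and 14.1. The 5′ neighbour rose at 19 of the 25 sites before U, 11 of 23 before C, 7 of 25 before G and 8 of 26 before A. Leaving out sites with a uridine on the 5′ side, the medians before U were 21.4 points at the Ψ and 14.2 at the neighbour, with 14 of 20 neighbours called. The flank 3′ of these sites is itself a uridine, and its change was about as large, 12.3 points over the 25 sites with 18 called and 14.02 points over the 20 with 15 called. Before A the 3′ neighbour had 0.836 points. In the libraries made with HIV reverse transcriptase the rise at C118 was 3.31 points against 35.5 here, a difference of 32.2 points (31.6 to 32.8). At A1080 it was 1.89 against 32.6. At A4298 it was 32.8 against 46.2, and with manganese 47.1.

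**Figure D4:**
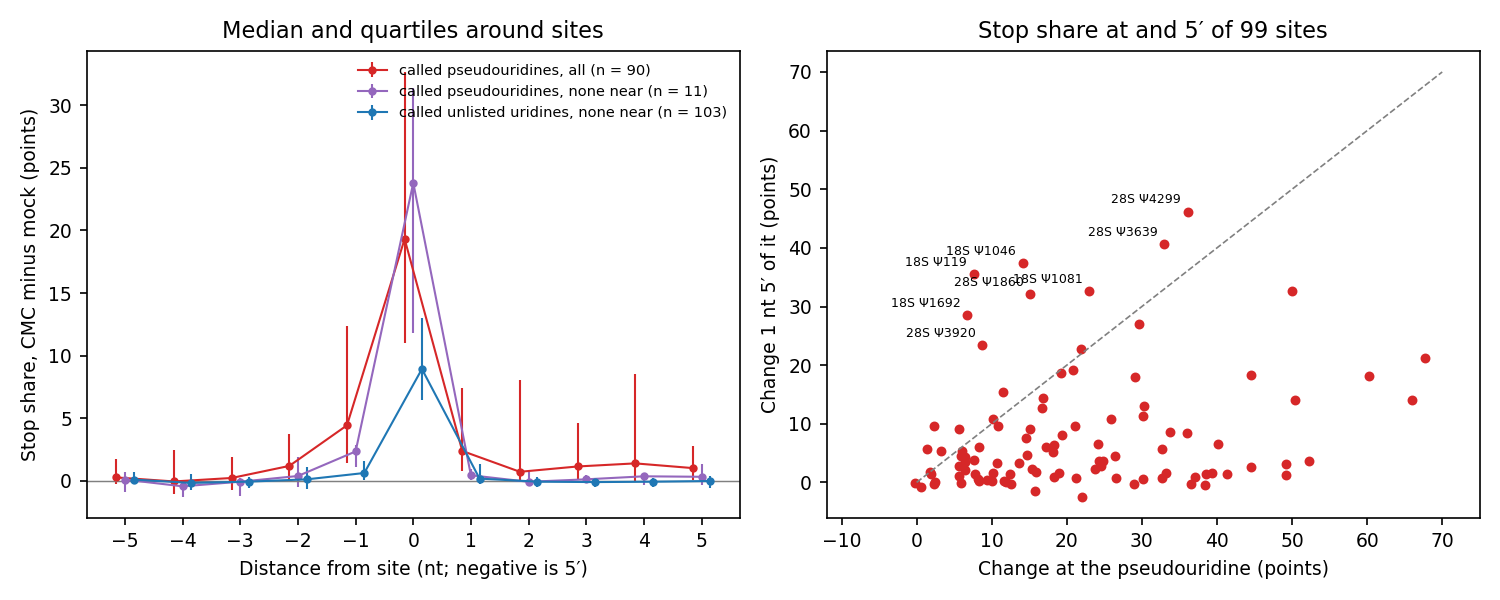
Left, median change in stop share (points, bars are quartiles) from 5 nt 5′ to 5 nt 3′ of called sites, for all 90 called pseudouridines, the 11 with no other call within 5 nt and the 103 unlisted uridines without one. Right, change at the position 5′ of each of the 99 listed pseudouridines against that at the site, with equality dashed; 16 sites lie above the line, among them 18S Ψ119 and 28S Ψ4299.

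The rises outside uridine largely had a uridine on their 3′ side. Of the 132 called among 5760 tested A, C and G, 83 lay just 5′ of a uridine and 66 just 5′ of a called uridine. Another count, just 5′ of a listed Ψ, was 27, out of the 73 tested A, C and G that stand there. Of the 66 tested A, C and G just 5′ of the 90 called listed Ψ, 24 rose. Of the 314 just 5′ of the 407 called unlisted uridines, 40 rose. Called uridines that are doubtful Ψ or otherwise modified are in neither count. The share before a uridine was 77.8% of the 27 A, 84.6% of the 26 C and 50.6% of the 79 G, where 17.6%, 15.1% and 15.2% of all tested A, C and G stand before one. The 5 largest rises at A (28S A4298, 18S A1080, A217, 28S A686 and 18S A650) were 18.7 to 46.2 points, and all stood before a uridine, 4 of them a listed Ψ. Those at C were C1247 and C118 of 18S and C1859, C3919 and C3352 of 28S, with 21.4 to 35.6 points, each before a uridine.

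G was the exception. Of its 79 rises, 39 did not stand before a uridine, 21 of them before an A. At 28S G4156 the stop share was 35.8% with CMC and 5.44% without, at 27991 and 24422 crossing reads, and at G1253 18.6% and 3.45%. Both lie between a C and an A and neither neighbour rose. With manganese the changes at G4156 and G1253 were 7.25 and 4.24 points, and with the HIV enzyme 23.7 and 9.28. The window around the first, with the G in capitals, is shown for its lack of any uridine 5′ of the site.
28S G4156, positions 4146 to 4166: ggccgggcgcGacccgcuccg

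Among the 1040 unlisted uridines 407 (39.1%) were called for stops, 202 of them with at least 10 points and 60 with at least 20. Some exceeded most listed Ψ. At 28S position 827 the stop share was 59.5% with CMC and 8.11% without, at only 1174 and 555 crossing reads, and at position 1792 it was 52.1% and 7.14% at 22991 and 142837. At position 4031 it was 59.4% and 23.6%, at 2212 50.6% and 16.6%, and at 1866 40.5% and 7.81%. The 2 highest are set out here, with the uridine in capitals.
28S U827, positions 817 to 837: gcguccucccUcgggagggcg
28S U1792, positions 1782 to 1802: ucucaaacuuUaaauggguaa
Position 827 was not alike in all libraries, with a change of 0.197 points with manganese and 32.7 with the HIV enzyme. The difference between magnesium and manganese was 51.2 points (47.2 to 55.2). At 1792 the changes were 45.0, 30.9 and 39.6 points with magnesium, manganese and the HIV enzyme. Whether either uridine is modified is not shown by these values.

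The other listed modifications included bases that block or misdirect the enzyme without CMC. Position 1248 of 18S, the hypermodified Ψ that carries a methyl and an aminocarboxypropyl group, had a mismatch share of 59.6% with CMC and 67.0% without, a called fall. Its stop share rose from 26.8% to 68.1%, and that of C1247 5′ of it from 28.4% to 63.9%. Mismatches there were read as C in 90.8% with CMC and 94.7% without. At N1-methyladenosine 1322 of 28S the stop share was 87.2% without CMC and 79.9% with it, and the mismatch share 19.0% and 14.3%. At the 5′ member of the paired N6,N6-dimethyladenosines of 18S, position 1850, the stop share was 94.98% without and 89.4% with CMC. Position 1851, which the enzyme meets before it, had a stop share of only 0.332% without and 0.185% with CMC. At N7-methylguanosine 1639 of 18S the stop share was 15.5% without and 8.64% with CMC. The unlisted G1638 next to it had a higher stop share and a larger called fall, 24.0% without and 13.9% with CMC. The stop shares at 1322, 1850 and 1639 fell past the call limit. 3-Methyluridine 4530 of 28S kept its mismatch share, 31.7% with CMC and 32.4% without, read mainly as A and G. The other 7 (N4-acetylcytidines 1337 and 1842, N6-methyladenosine 1832 and N6,N6-dimethyladenosine 1851 of 18S, and 5-methylcytidines 3782 and 4447 and N6-methyladenosine 4220 of 28S) changed by at most 2.23 points in either measure and had no call.

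The 127 falls in stop share were mostly at C (61), G (39) and A (26), and 111 lay in 28S. Their median stop share was 14.1% without CMC and 7.14% with it, where a called fall needs more than 5% without CMC by definition. The median GC content of the 10 nt on either side was 85% at the falls in 28S against 70% over 28S, but 45% at the 16 in 18S against 55% over 18S. Crossing reads were more numerous with CMC at the falls in 28S (median ratio 1.86, against 0.998 for 28S) but not at the 16 in 18S (0.487, against 0.598). Crossing reads and stop share are linked by definition, as above. The part of GC content or of depth in the result was not tested. Over the 1034 positions with a mock stop share of at least 5%, the median GC content was 70% and the median ratio 1.05. Over all 127 falls they were 80% and 1.69. Of the falls 50 (39.4%) stood before an A, as 17.5% of all positions do, and the share among those 1034 positions was not counted.

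The largest was at 28S C3334, 13.4% with CMC and 45.6% without, on 1236 and 273 crossing reads. C3335 and C3336 next to it had 6.46% against 22.6% and 18.3% against 33.2%. C2204 and C2203 had 24.1% against 49.9% and 33.2% against 52.6%, again on few reads, and C3216 18.5% against 38.1%. On deeper coverage, A1175 had 13.7% against 31.8% (18744 and 9073 reads), G4851 11.8% against 28.6%, and A4046 8.68% against 23.1% (51874 and 35805 reads). G2981, C3047 and C1053 had 4.56% against 21.4%, 5.78% against 20.5% and 12.2% against 26.7%. Where the mock stop share was at least 5%, the CMC share was lower at 82.7% of 342 C, 78.0% of 182 A and 58.4% of 344 G, but at 8.43% of 166 uridines. Choosing positions by a high mock share itself favours a lower CMC share. Over all tested positions the share was higher with CMC at only 30.5% of C and 33.6% of A, and at 56.6% of G and 93.1% of uridines. Falls clustered, with 65 of the 127 in 22 runs whose members lay at most 3 nt apart, and the longest runs, 28S 3045 to 3051 and 3333 to 3340, held 6 each.

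**Figure D5:**
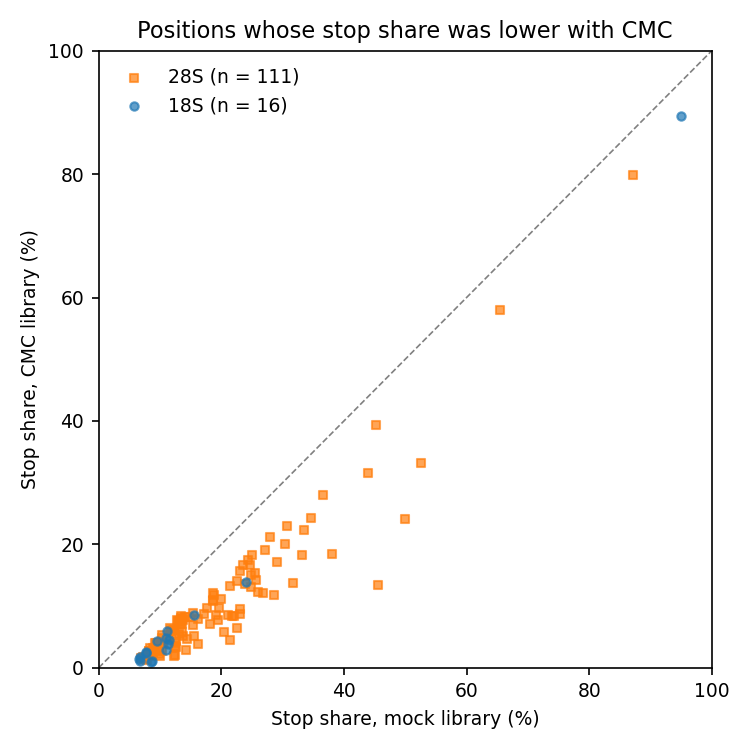
Stop share with CMC against stop share in the mock library, in percent, at the 127 positions called lower with CMC (squares 28S, n = 111; circles 18S, n = 16), with equality dashed. The points at the upper right, at 94.98% and 87.2% without CMC, are N6,N6-dimethyladenosine 1850 of 18S and N1-methyladenosine 1322 of 28S.

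Mismatch shares fell at 6 positions, of which 18S 1248 is given above. The other 5 lay in GC-rich stretches of 28S. At C3337 the share was 19.8% with CMC and 50.5% without, on 1329 and 582 reads, and the wrong base was A in 98.5% and 97.3% of mismatches. At C3050 it was 16.5% and 38.6% (13121 and 11140 reads), read as U in 98.0% and 98.8%, and at C3068 7.63% and 15.9%, read as U in 99.4% and 99.8%. At G3048 it was 3.10% and 13.3%, read mostly as U, and there the stop share fell as well, from 19.6% to 9.65%. At G626 it was 2.41% and 9.94% on 704 and 332 reads, split between 2 wrong bases (U in 58.8% and 51.5% of mismatches, C in 41.2% and 45.5%). Each of these 5 was lower with CMC in the other 2 library pairs too. At C3337 those changes were -26.1 points with manganese and -12.5 with the HIV enzyme, and at C3050 -16.3 and -3.21. The windows of these 2 positions have the base or bases concerned in capitals, the run of C that was read with mismatches or stops around C3337, and G3048 with C3050.
28S C3337, positions 3327 to 3347: gcgcgccCCCCcccccacccc
28S C3050, positions 3040 to 3060: cgccccgcGcCcucucucucu

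Of the 8 unlisted positions whose mismatch share rose, 7 were read as 1 wrong base in over 85% of mismatches with CMC. At 28S C3481 and U3482, which are adjacent, the share was 9.77% and 11.1% with CMC and 0.660% and 0.744% without, on 6528 and 6561 reads with CMC and 1213 and 1210 without. With CMC they were read as U and as C respectively in over 99% of mismatches. C3481 was called for both measures, since its stop share fell from 22.5% to 14.01%. At G4150 the mismatch share was 24.1% and 13.0%, read as U. At A3343, C3341, U5069, U792 and A2207 it was 16.5% against 4.13%, 14.6% against 4.67%, 13.2% against 2.90%, 10.8% against 3.75% and 7.78% against 2.07%. Their crossing reads with and without CMC were few, 1893 and 1548, 1512 and 1049, 3516 and 862, 4542 and 3038, and 1169 and 917. A3343 and C3341 lie in the window of C3337 shown above. U5069 is the last tested position of 28S and had no stops in either library. In the mock library too, all 8 stood above the medians of the 4 bases, which were 0.0590% to 0.0990%. At A3343 the base read was C in 96.5% with CMC and 98.4% without, so its make-up was close between libraries while its amount differed. With manganese all 8 were higher with CMC too, by 2.53 to 11.6 points, and with the HIV enzyme 6 of them.

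Many calls recurred in the other pairs of libraries, which share no library with this one but come from the same cell line and the same lane. Whether the pairs used separately treated RNA is not shown by these values, so recurrence is not read as replication. Those pairs called rises in stops at 8.38% (manganese) and 10.06% (HIV enzyme) of their positions, falls at 1.98% and 3.66%, and rises in mismatches at 1.29% and 1.05%. Of the 637 rises in stops, 384 (60.3%, and 66.2% of the 580 called with manganese) were called with manganese and 447 (70.2%, and 64.0% of 698) with the HIV enzyme. Of the 127 falls, 75 (59.1%, and 54.7% of 137) recurred with manganese and 23 (18.1%, and 9.06% of 254) with the HIV enzyme. Calls in the opposite direction were 2 of the rises in each pair, and 3 of the falls with manganese and 6 with the HIV enzyme. Of the 11 rises in mismatches, 9 recurred with manganese and 5 with the HIV enzyme, which called 89 and 73 positions themselves. At the 99 listed Ψ the stop change was larger with magnesium than with manganese at 86 and than with the HIV enzyme at 70, and the mismatch change at 1 and 4.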

How the data were processed

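Per the labels' protocols, 6 libraries of HEK293T/17 RNA were sequenced in a single lane, 1 per group, and 2 are compared here. Per the submitters' processing notes, Trimmomatic 0.32 and Bowtie 1.0 were used. For their settings, the reference and the counter, the sources used here give nothing. For each rRNA position the authors deposited counts of crossing reads and of each base read, the whole-number count of stops, and both rates as a fraction. These fractions equalled those recomputed from the counts within 1e-09. Mismatch share was mismatched over crossing reads, and stop share stops over stops plus crossing reads, each as CMC minus mock. The authors' combined column was not used.

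Each position crossed by 100 or more reads in each library was given a Fisher's exact test, two-sided, on the deposited counts (SciPy 1.17.1, with Python 3.11.15, NumPy 2.4.6, pandas 2.3.3 and matplotlib 3.10.9), adjusted by Benjamini-Hochberg over all 6912 positions, and called at an adjusted p under 0.05 and at least 5 points. The procedure was tested on simulated data, with independent reads drawn at the mock shares and known points added at some positions. Such data hold counting error only, so they cannot show how far the calls hold between libraries. Medians carry 95% binomial order-statistic intervals, and shares 95% Wilson intervals. Differences between library pairs carry normal intervals from read counts. Modification sites came from general knowledge: of 105 established Ψ entries 99 fell on a uridine and were used, as were 11 of 16 doubtful ones. Positions named were, per measure, the 10 listed Ψ with the largest called rise, the 5 largest called rises per base among unlisted positions, every mismatch fall, the 12 largest stop falls, positions called for both measures, listed Ψ without a call, and every other listed modification. Neighbours and motifs named beside them were chosen after their values were seen. The members, lists and rules were chosen with earlier results of these data known. The alternatives tried changed the size limit, the depth limit, the positions included, the centring, the row of the stops and the summary over sites.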

Additional observations from a re-analysis of the deposited data

Results flagged for a closer look

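At 28S position 3481 the change in stop share went in opposite directions under the 2 enzymes used with magnesium. It was -8.48 points with SuperScript III and 6.33 points with HIV reverse transcriptase, and both changes passed the call limit. The difference was -14.8 points (95% normal interval from read counts -17.4 to -12.2). With manganese the change was -7.82 points. The position had 1213 crossing reads in the mock library made with SuperScript III and magnesium, and its mismatch share changed by 9.11 points in the same pair.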

How the results depend on the processing

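With 1 library per group no replicate can be left out and nothing here measures the spread between samples. No paired analysis was possible because each group has a single library and the labels carry no replicate numbers. Depth limits the shares on GC-rich stretches of 28S, where positions have as few as 269 and 109 reads. The causes of the changes below were not tested beyond what each alternative itself removes.

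Calls higher and lower numbered 11 and 6 for mismatches and 637 and 127 for stops. A limit of 2 points gave 48, 20, 1237 and 577, one of 10 points 7, 3, 323 and 35, and a fold rule (2 times apart and at least 1 point) 105, 28, 1190 and 550. Without positions of at least 20% mock mismatch, mismatch falls numbered 3. An alternative chosen after seeing the data, at least 20000 crossing reads in both libraries, left 3 and 1 mismatch calls and 54 stop falls, while stop rises stayed within 1.5 times at 490. Limits of 20 or 1000 crossing reads, leaving out the outer 50 positions, centring and stops over crossing reads kept every count they apply to within 1.5 times.

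Without listed positions the medians at U were 0.125 points for mismatches and 3.46 for stops. Stops of the row 5′ gave medians of -0.0065 for A, -0.134 for C, 0 for G and 0.888 for U, and those of the row 3′ -0.081, -0.0092, 0 and 0.319. At the listed Ψ the mean mismatch change was 1.25 points and the pooled one 1.44, against a median of 0.490, and the pooled stop change was 26.1 points. Isolated called Ψ had 2.36 points 5′ and 0.454 points 3′, against 4.44 and 2.39 over all called ones. As a mean over positions the share of mismatches read as C was 61.8% at listed Ψ and 51.8% at unlisted U, that read as A at G 38.9%, that read as U at C 61.2%, and that read as U at A 36.5%. Of 67 calls at named positions, 13 were under 10 points, and centring kept all 67.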
